A study of Mus musculus with 3072 samples.

Results

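Variation of gene expression between single HSC, the usual abbreviation of hematopoietic stem cells, was described in the wells of the deposited count matrix whose column name contains HSC, from both treatments. Of 768 HSC wells, among 3072 samples in the series, 679 were kept: their totals reached 20000 counts, their detected genes numbered 1000 to 10000, and mitochondrial transcripts made up no more than 20% of the total. All cells came from wild-type C57BL/6 mice, and the series' design text states that the animals had been transplanted with stem cells carrying barcodes. Single marrow cells were sorted by flow cytometry into lysis buffer, frozen, and sequenced by Smart-seq2, a method that amplifies whole transcripts. The control group held 4 mice examined 32 weeks after transplantation, which gave 84, 80, 79 and 76 kept HSC. The platelet-depleted group held 4 mice examined 28 weeks after transplantation, which gave 90, 92, 86 and 92. Treatment and week coincide, so the effects of the 2 cannot be told apart, and the labels name neither the depleting agent nor the time since depletion. The labels do not say whether a sorted cell descended from transplanted or host cells, which antibodies gated the HSC, or, in words, that the code opening each title is a mouse. The HSC of a mouse filled 1 set of 96 wells, so the mouse and its set of wells cannot be told apart either.

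Hematopoietic stem cells sit at the top of blood formation, where they self-renew and give rise to all blood lineages. Most of them are quiescent at any time, and they enter the cell cycle as they are activated or begin to differentiate. Some are known to be biased towards platelets, a state marked by Vwf, the gene of von Willebrand factor. Stress genes, antigen presentation genes and cell cycle genes are classes that can differ between individual stem cells of 1 animal.

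Totals of kept HSC ran from 28152 to 5315421 counts (median 1326554), and detected genes from 2320 to 9272 (median 5916). The wells removed were 71 with under 20000 counts, which include all 13 wells with under 1000 genes, and 18 with over 10000 genes, 1 to 3 in each mouse. No HSC well exceeded the mitochondrial limit, and the highest kept share was 17.4%. At the thresholds, the fullest well removed held 18586 counts and the emptiest kept held 28152, while 9272 genes was the highest kept number and 10138 the lowest removed. No 2 kept wells shared both total and gene number. Depth was then equalised by drawing 100000 counts at random from each cell, called thinning here, which 673 cells could supply and 6 could not. The median number of genes in thinned cells was 4547, 4436, 4940 and 4693 in the control mice and 4272, 3853, 4169 and 4085 in the depleted mice. The groups did not overlap, and the difference of the means, 4654 ± 218 against 4095 ± 178 genes (SD, n = 4 mice each), had an exact 2-sided permutation p of 0.0286, the smallest that 70 labelings allow, and an adjusted p of 0.0761 over 4 quality measures. Median total counts gave an exact permutation p of 1.0. Smart-seq2 has no molecular identifiers, so shares of cells with a count carry amplification and counting error that was not measured.

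The 5 genes that mark the stem cell state were detected in every mouse but not in every cell. Procr encodes the endothelial protein C receptor, Hlf, Mecom and Mllt3 encode nuclear regulators of stem cell maintenance, and Slamf1 encodes the surface receptor CD150. Procr had a count in 73.8% of HSC with all counts used and in 66.1% after thinning. By mouse, the thinned share for Procr was 71.1%, 75.6%, 53.8% and 58.7% in controls and 70.0%, 66.3%, 66.3% and 67.0% in depleted mice. Control mice 3 and 4 were lowest, and the depleted mice lay between the control values. The thinned shares were 83.0% for Hlf, 73.7% for Mllt3, 69.0% for Mecom and 46.9% for Slamf1, the least often detected of the 5. Slamf1 ranged from 34.8% to 64.1% over the mice. Its median level over the cells of a mouse was 8.08, 125, 40.7 and 0 CPM (counts scaled to 1 common total in every cell) in controls and 0.686, 0, 0.728 and 0.682 CPM in depleted mice. Control mice 1 to 3 were higher than the depleted mice, but control mouse 4 was at 0, so the groups overlapped. All 5 genes were detected together in 9.33% to 32.1% of a mouse's thinned cells, and none of them in 0% to 3.49%.

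**Figure D1:**
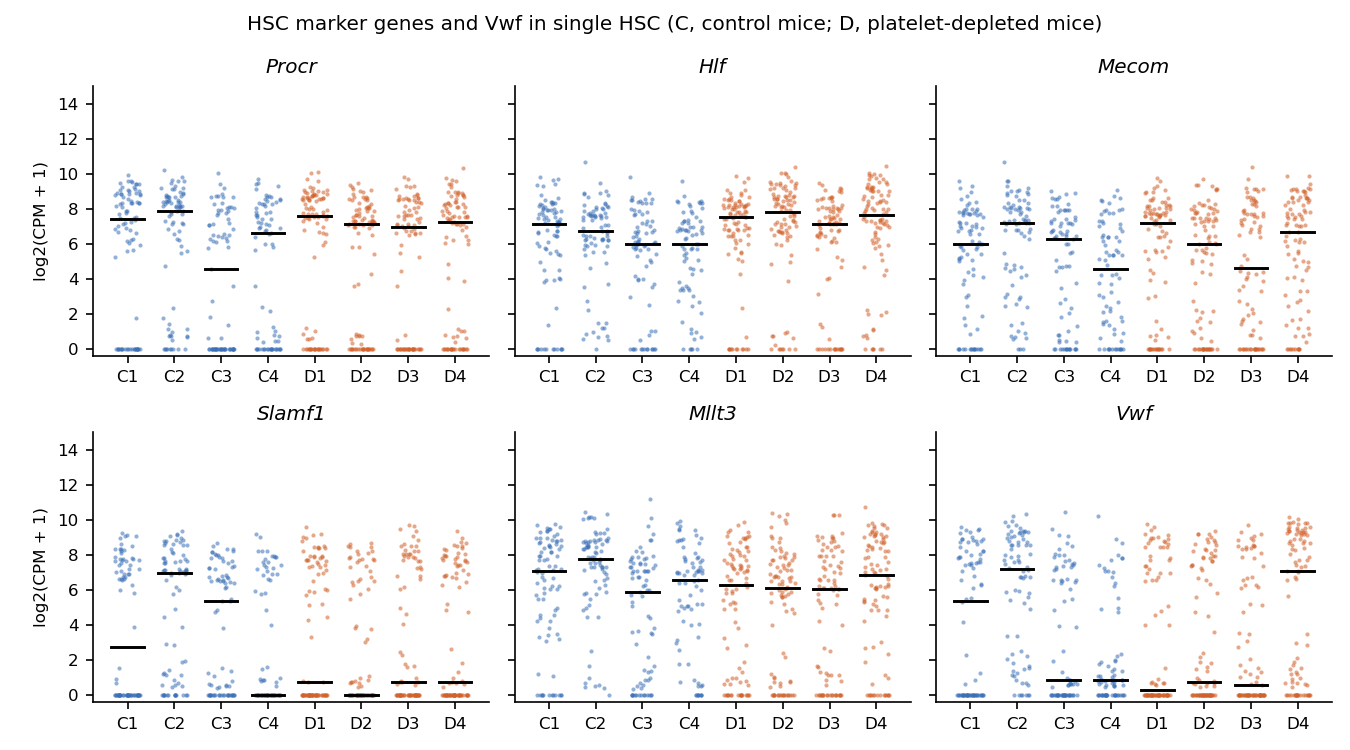
Level in log2(CPM + 1) (vertical axis) of the 5 marker genes and Vwf in each kept HSC (1 point a cell) of 4 control (C1 to C4) and 4 platelet-depleted (D1 to D4) mice; black lines are medians. Levels of single cells within a mouse run from 0 to high values, and the median of Vwf is high in C1, C2 and D4.

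Against the other populations, the mean level of Procr was 196 CPM in HSC, 1.49 CPM in MkP of 5 mice, and 0 in 69 CFU of control mouse 2, populations that the labels name by these abbreviations only. The levels of Hlf were 194, 21.1 and 0.0698 CPM in the same order. Mllt3 was at 202 CPM in HSC and 94.2 CPM in those CFU. The HSC means cover 8 mice, the MkP means 5 and the CFU means control mouse 2 alone, so the sets of mice differ. The mean of each of the 5 genes was highest in HSC among the populations read. Cd48, a gene of more mature progenitors, was at 2.82 CPM with a count in 10.4% of HSC. Among genes of other cell types, 12 of 15 lymphoid markers lay under 1 CPM, 6 of them (Il7r, Rag1, Pax5, Cd3e, Cd3g and Ighd) at 0, and their summed level was 30.9 to 45.4 CPM in control and 36.5 to 51.6 CPM in depleted mice. Of 10 mast cell and basophil markers, 8 lay under 1 CPM, with sums of 9.14 to 26.04 CPM in control and 2.41 to 12.2 CPM in depleted mice. Neutrophil and monocyte markers summed to 767 to 828 CPM in control and 891 to 1308 CPM in depleted mice, of which Lyz2, the lysozyme gene, held 552 CPM on average, while Mpo was at 1.86 CPM and Elane and Ctsg were under 1 CPM. The part of these genes in the results was not tested.

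Detection was graded rather than all or none. Of 55291 gene symbols, 10759 reached a mean of 5 CPM over the 8 mice and were examined further. After thinning, 545 of these were detected in at least 90% of HSC, 9178 in 10% to under 90%, and 1036 in under 10%, with a median share of 33.8%. Genes of major histocompatibility complex (MHC) class I presentation, which display peptides on nearly all cells, had a median share of 98.7%, and stem cell transcription factors 70.3%. G2/M genes, which act in mitosis, had a median share of 9.94%, and S-phase genes, which replicate DNA, 37.3%. Mki67, the proliferation marker, had a count in 16.4% of thinned HSC at a mean of 30.1 CPM.

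Spread between cells was measured as the SD of log2(CPM + 1) over the HSC of 1 mouse, less the SD expected for a gene of that mean level from a trend over all genes. This excess SD, in log2 units, removes the mean of each mouse. It was above 0 in all 8 mice for 2118 of the 10759 genes, 19.7%, and below 0 in all 8 for 2563, 23.8%. Across genes, the excess SD of any 2 mice correlated with r of 0.91 to 0.94 over 28 pairs of mice, a description in which genes are not independent and share each mouse's wells. The ranking that follows chose its genes by this value, so the values are a description with no test.

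**Figure D2:**
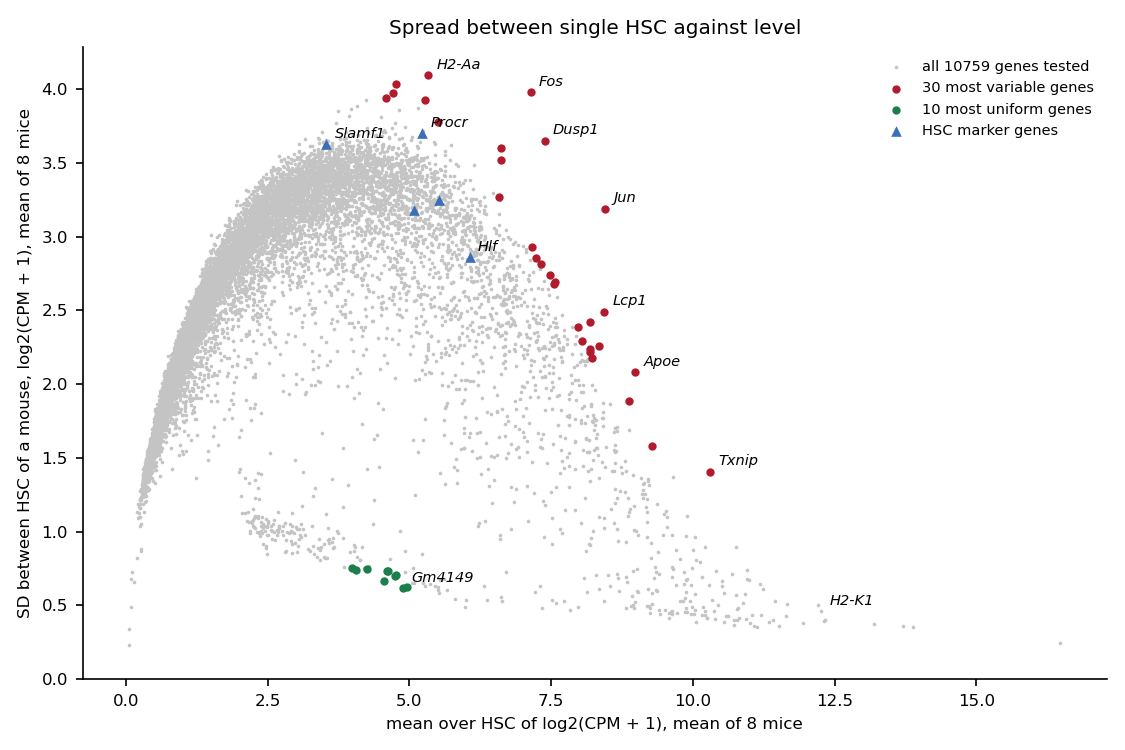
SD between the HSC of a mouse (vertical axis) against mean level (horizontal axis), both in log2(CPM + 1) and averaged over 8 mice; grey points are genes. The 30 most variable genes (red) lie along the upper edge, with Jun, Fos and Dusp1 farthest above genes of like level. The 10 most uniform for their level (green), those of lowest excess SD, lie between an SD of 0.62 and 0.76.

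Immediate early genes headed the ranking. They are switched on within minutes of a stimulus without new protein synthesis: Jun and Fos encode partners in the transcription factor AP-1, and Dusp1 encodes a phosphatase that turns off MAP kinases. Their excess SD was 1.81 ± 0.43 for Jun, 1.81 ± 0.57 for Fos and 1.59 ± 0.40 for Dusp1 (SD, n = 8 mice). The 10th, 50th and 90th percentiles of Fos over the cells of a mouse, each as the median of 8 mice, were 1.35, 374 and 3335 CPM. The median of Fos was 6.37, 734, 601 and 459 CPM in control mice and 1277, 127, 275 and 288 CPM in depleted mice. Control mouse 1 was lowest and depleted mouse 1 highest, and the groups overlapped. Between cells of a mouse the SD of Fos was 3.98, against 1.43 between the means of the mice, both on the log2 scale. Of 18 tested immediate early genes, 10 had an excess SD above 0 in all 8 mice (all genes 19.7%) and 2 had one below 0 in all 8 (23.8%). The list's median was 0.24, against 0.00 over all genes. Also high were Dusp2 at 0.58, Egr1 at 0.57, Zfp36, which encodes an RNA-decay factor, at 0.55 and Ier2 at 0.51. Klf2 and Nr4a2 had values of -0.11 and -0.20. Fos, Jun, Dusp1 and Zfp36 were all detected in 32.5% to 72.0% of a mouse's thinned cells, with control mouse 1 lowest, and none of the 4 in 0% to 4.40%. Ppp1r15a, a stress-response phosphatase subunit outside this list, had an excess SD of 0.98.

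**Figure D3:**
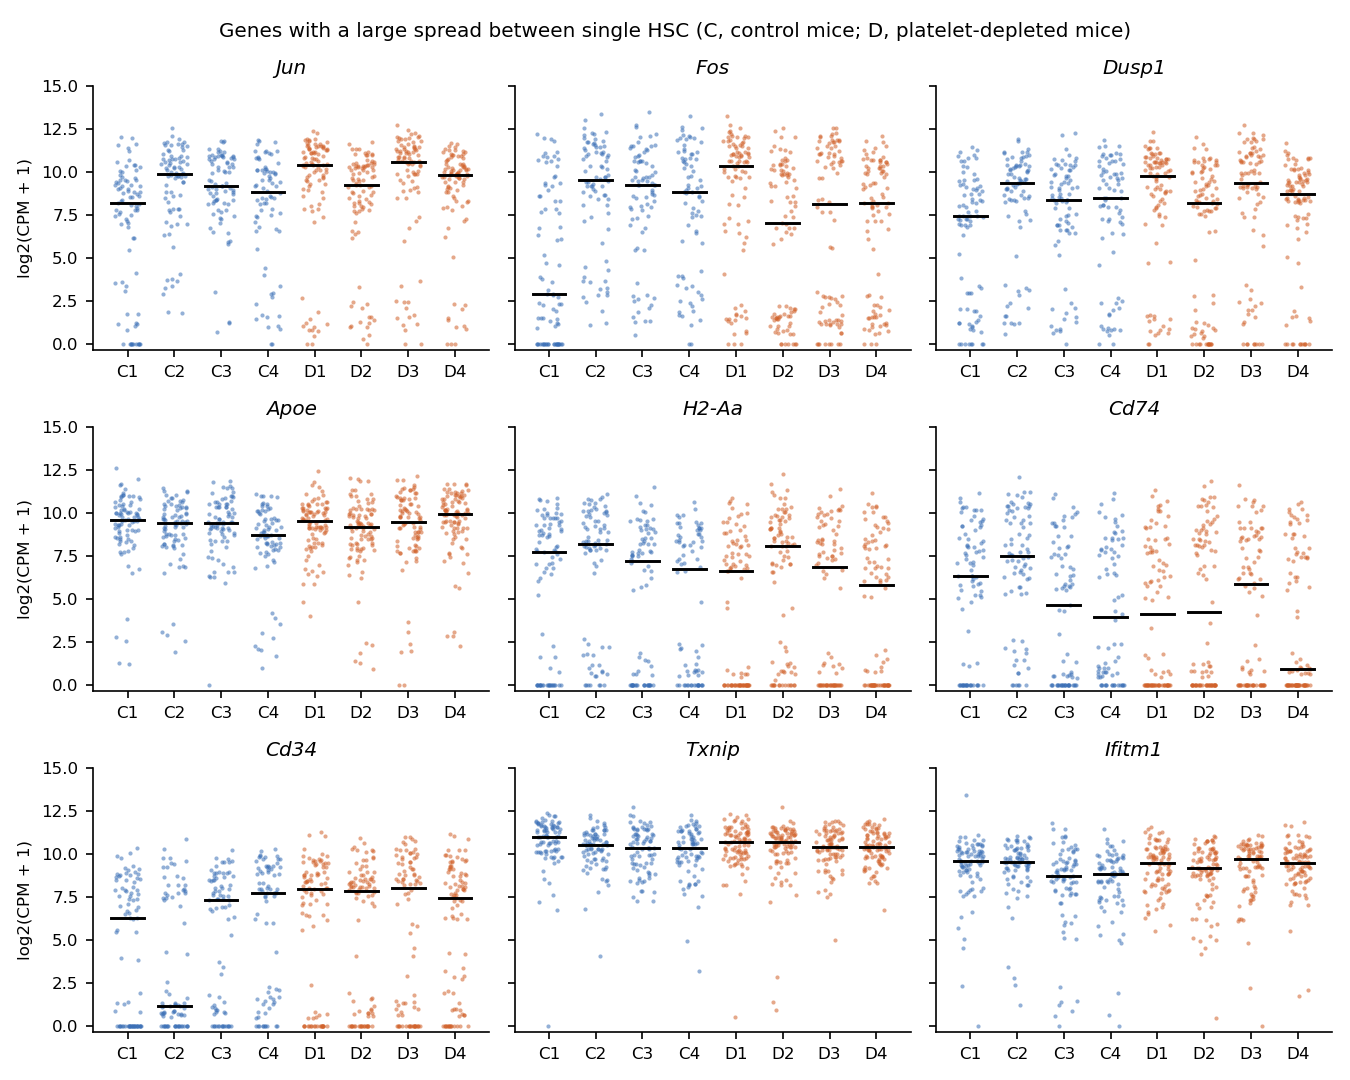
Level in log2(CPM + 1) (vertical axis) of 9 of the 30 most variable genes in each kept HSC of the control (C1 to C4) and platelet-depleted (D1 to D4) mice; black lines are medians. Fos and Dusp1 run from near 0 to above 10 within each mouse, while Txnip is high in nearly every cell with a tail of low cells.

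The starts of 3 of these genes are shown because Fos, Zfp36 and Dusp1 also varied together, as given further on. Each stretch runs from 200 bases before to 30 bases from the annotated start, 5′ to 3′ on the gene's strand, from RefSeq on GRCm38.p6. The build behind the deposited counts is not given in the sources used here. Capitals mark matches on either strand to letters chosen gene by gene. In Fos and Dusp1 they mark TGACG, the core of the cyclic AMP response element. In Zfp36 they mark the CArG box, the serum response element's core.
Fos, chr12:85473690-85473919, plus strand: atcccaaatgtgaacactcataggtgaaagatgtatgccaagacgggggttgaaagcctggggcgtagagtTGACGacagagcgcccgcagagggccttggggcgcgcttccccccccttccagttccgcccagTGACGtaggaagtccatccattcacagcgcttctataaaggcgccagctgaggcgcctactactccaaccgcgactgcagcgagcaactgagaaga
Zfp36, chr7:28379199-28379428, minus strand: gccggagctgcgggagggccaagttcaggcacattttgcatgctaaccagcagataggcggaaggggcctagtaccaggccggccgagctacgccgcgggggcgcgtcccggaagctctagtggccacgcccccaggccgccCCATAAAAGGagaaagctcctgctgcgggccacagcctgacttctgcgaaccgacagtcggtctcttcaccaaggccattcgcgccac
Dusp1, chr17:26508443-26508672, minus strand: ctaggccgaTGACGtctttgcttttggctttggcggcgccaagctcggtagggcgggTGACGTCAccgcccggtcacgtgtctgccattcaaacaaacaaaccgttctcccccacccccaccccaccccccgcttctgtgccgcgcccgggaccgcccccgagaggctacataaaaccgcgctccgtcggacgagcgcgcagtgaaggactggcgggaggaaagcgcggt
Fos held TGACG 129 and 66 bases before its start. Dusp1 held it 191 bases before, and again at 143 and 140 bases before, where matches on opposite strands overlap in the full palindrome TGACGTCA. In the whole windows of 300 bases (250 before to 50 after the start), TGACG stood in 11 of the 19 immediate early genes with a window, against 21.0% of all 27025 windows. Jun and Zfp36 had no TGACG in their windows, while Klf2 and Nr4a2, whose excess SD was below 0, held it. The printed genes thus share no single marked element. The CArG box stood in 1 of the 19, Zfp36, against 1.57% of all windows. The list has 22 genes, and Egr1 and Ier2 are among those without a window. Sites farther than 250 bases before a start were not searched, so the count cannot say that a gene lacks a CArG box. A match is a description of letters, not a bound site.

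MHC class II genes formed the second group. H2-Aa, H2-Ab1 and H2-Eb1 encode the chains that present peptides to T cells, and Cd74 encodes the invariant chain that escorts them. Of 7 tested genes of this list, 6 had an excess SD above 0 in all 8 mice (all genes 19.7%) and 0 below (23.8%). The list's median was 0.67. The values were 0.98 ± 0.27 for H2-Aa, 0.76 ± 0.19 for Cd74, 0.69 ± 0.21 for H2-Eb1 and 0.67 ± 0.17 for H2-Ab1 (SD, n = 8 mice). The exception, at above 0 in 7 of 8 mice, was Ciita, the master regulator of the class, with 0.08 at a mean of 12.9 CPM. H2-Aa was detected in 67.5%, 73.1%, 60.3% and 54.7% of thinned cells in control mice and in 56.7%, 68.5%, 59.3% and 53.8% in depleted mice. The groups overlapped, and every mouse held cells with a count and cells without one. The 4 genes were all detected in 23.1% to 47.4% of a mouse's thinned cells, and none of them in 6.41% to 25.3%.

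The starts of H2-Aa and H2-Eb1, the class II genes with a window whose excess SD was among the 30 highest, are printed in the same form. Capitals mark CCAAT, the letters of the Y element bound by NF-Y, on either strand (ATTGG on the opposite one), and in H2-Aa also TGACG.
H2-Aa, chr17:34287794-34288023, minus strand: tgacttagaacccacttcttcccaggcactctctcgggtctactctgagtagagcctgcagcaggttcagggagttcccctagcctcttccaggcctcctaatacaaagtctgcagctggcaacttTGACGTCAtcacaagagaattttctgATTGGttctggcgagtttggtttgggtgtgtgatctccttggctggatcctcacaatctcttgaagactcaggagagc
H2-Eb1, chr17:34305667-34305896, plus strand: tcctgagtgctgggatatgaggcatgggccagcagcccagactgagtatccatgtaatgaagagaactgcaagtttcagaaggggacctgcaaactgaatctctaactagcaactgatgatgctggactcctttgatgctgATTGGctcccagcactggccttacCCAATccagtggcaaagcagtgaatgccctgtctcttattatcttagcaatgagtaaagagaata
H2-Aa held CCAAT 48 bases before its start, and the palindrome TGACGTCA before that, where TGACG matched at 74 and 71 bases. H2-Eb1 held CCAAT at 59 and 35 bases before its start. In the whole windows CCAAT stood in 3 of the 4 class II genes with a window, against 37.9% of all windows.

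Other immune-type lists were mixed. Interferon response genes had a median of 0.05, with 7 of 21 above 0 and 5 below 0 in all 8 mice, from -0.95 for Ifi47 to 0.54 for Oasl2. Over all genes 19.7% were above 0 and 23.8% below 0 in all 8 mice. The counts below 0 for interferon response and class I genes were near that share. Interferon-inducible GTPases, which defend cells against intracellular pathogens, had a median of 0.22, with 7 of 14 above 0 in all 8 mice and 1 below. Igtp had 0.59, Iigp1 0.53 and Gbp2 0.46, while Tgtp2, which has a near-identical copy in Tgtp1 and may share its reads, had -1.19. Gimap GTPases, which regulate lymphocyte survival, had 4 of 7 above 0 in all mice and none below, led by Gimap6 at 0.68. Class I genes had a median of 0.06, with 4 of 13 above 0 and 3 below 0 in all 8 mice, from -1.87 for H2-Q4 to 0.49 for Tap1, a subunit of the peptide transporter. B2m, the shared light chain, had 0.06 at a mean of 5360 CPM. Ifitm1, an interferon-inducible membrane protein, had 0.78 ± 0.29 (SD, n = 8 mice) and was detected in 97.2% of thinned cells.

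Among surface receptors, 13 of 20 tested had an excess SD above 0 in all 8 mice (all genes 19.7%). Only 1, the chemokine receptor gene Cxcr4 at -1.12, was below 0 in all 8 (all genes 23.8%). The list's median was 0.30. Cd34, a sialomucin that is low on long-term stem cells, had the highest value, 0.78 ± 0.18 (SD, n = 8 mice). Its median level was 74.8, 1.24, 157 and 209 CPM in control mice and 242, 227, 264 and 175 CPM in depleted mice. Control mouse 2 was lowest, and the groups overlapped. Kit, the stem cell factor receptor gene, had 0.30. Of the 5 marker genes, Procr had 0.52, Slamf1 0.32 and Mllt3 0.19, while Hlf at -0.01 and Mecom at -0.04 varied about as much as genes of their level. Stem cell transcription factors were more even, with a median of -0.12, 2 of 17 above 0 in all mice and 7 below. Gata2 was at 0.42 and Lmo2 at 0.09, while Erg was at -0.49 and Hhex at -0.63.

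Genes known from low-output or platelet-biased stem cells had a median of 0.21. Of 16 tested, 9 were above 0 in all 8 mice (all genes 19.7%) and 2 below (23.8%). Sult1a1, a sulfotransferase gene, led at 0.81, followed by Aldh1a1, an aldehyde dehydrogenase gene, at 0.63 and Mmrn1, which encodes a platelet factor V carrier, at 0.59. Vwf had 0.43 and a count in 47.4% of thinned cells. The thinned shares for Vwf were 53.0%, 70.5%, 41.0% and 33.3% in control mice and 41.1%, 43.5%, 37.2% and 59.3% in depleted mice. Control mouse 2 and depleted mouse 4 were highest, so the groups overlapped, and the SD between mouse means was 1.25 on the log2 scale. Glycolysis genes had a median of 0.29 (7 of 16 above 0 in all mice, 2 below), led by Gpi1 at 0.49. The remaining genes of the 30 most variable included Lcp1, an actin bundler of blood cells, at 1.14, Apoe, a lipid carrier, at 1.03, Rgs1, a G-protein regulator, at 1.02, Hspa5, a chaperone of the endoplasmic reticulum, at 0.86 and Txnip, an inhibitor of thioredoxin and glucose uptake, at 0.84. Also among the 30 were Def8, Cct3, Phgdh, Wdr1 and Sdha. Sdha, at 0.74, was the highest of 14 tested genes in a list of reference genes and ranked above H2-Eb1 and H2-Ab1. The last of the 30 was Coro1a at 0.65, and the first outside was Anapc5, also at 0.65.

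The genes of lowest excess SD were copies of housekeeping genes. This is relative to other genes of their level, and the SD itself was lower still for abundant genes such as Actb (0.504) and B2m (0.399). The 10 lowest values ran from -2.68 for Gm4149 to -2.60 for Gm15772, and all 10 are predicted genes or ribosomal protein copies, which share reads with near-identical genes and are uncertain one by one. Mitochondrially encoded genes ranged widely in excess SD. Values of mt-Nd1, mt-Nd5, mt-Cytb and mt-Co1 were 0.04 to 0.09. Of 12 tested, 8 were below 0 in all 8 mice (all genes 23.8%), down to -2.53 for mt-Co2. The list's median detection share in thinned cells was 99.4%. Each value is relative to genes of like level, and the part of level in this range was not tested. S-phase genes had a median of 0.08, with Mcm6 at 0.64, Mcm3 at 0.45 and Mcm2 at 0.33, subunits of the replicative helicase. G2/M genes had a median of -0.08, a value relative to other genes of the same low mean. Of these 20 genes 0 were above and 0 below 0 in all mice (all genes 19.7% and 23.8%). At least 10 of the 20 G2/M genes were detected in 1.16% to 14.1% of a mouse's thinned cells, highest in control mouse 3, and at least 10 of the 20 S-phase genes in 10.3% to 46.7%.

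Genes were next compared in pairs across cells, with Spearman's correlation inside each mouse, so that differences between mice cannot enter. The 4809 genes with a count in at least 50% of HSC gave 11560836 pairs. The median r of the 8 mice lay between -0.13 and 0.15 for the middle of these pairs (1st to 99th percentile), with a median of 0.01. Counts of pairs past a limit, and the highest and lowest pairs, left out pairs of genes that share their letters before the first digit. They also left out pairs within the mitochondrially encoded, ribosomal protein, H2 class I or histone genes. Among the rest, the median r was at least 0.3 for 2799 pairs and at most -0.3 for 693. Cells of a mouse share a set of wells, and r carries depth and amplification, so these values are descriptions without a p. The 20 highest pairs, all at 0.74 or more, each held a predicted gene or pseudogene, such as Gm6563 with Sarnp at 0.88, which stood at 0.69 after thinning. Without predicted genes and pseudogenes, a restriction chosen after the values were seen, 2031 positive and 613 negative pairs over 434 genes stood past the limit. Leaving out depleted mouse 3 moved the 3492 pairs past the limit to 5384, and regressing out total count and number of genes moved them to 1344. By sign, that regression moved the positive pairs from 2799 to 1228 and the negative pairs from 693 to 116.

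The class II genes gave the highest of these pairs. Cd74 with H2-Aa had a median r of 0.70, with 0.75, 0.71, 0.76 and 0.71 in control mice and 0.58, 0.66, 0.69 and 0.49 in depleted mice. Depleted mouse 4 was lowest and every mouse was positive. Cd74 with H2-Eb1 gave 0.63 and with H2-Ab1 0.58, and the values were 0.64 and 0.60 after thinning. Position set 2 pairs apart. B3gnt8 with Bckdha at 0.68 lie within 10000 bases and Htra2 with Loxl3 at 0.54 overlap, and no strand rule is stated, so reads of 1 gene cannot be told apart from reads of the other. After thinning these 2 values were 0.35 and 0.18. Fos correlated most with Zfp36, at 0.58, over a range of 0.39 to 0.70 in the 8 mice, then with Fosb at 0.52 and Dusp1 at 0.47. Fos with Jun, chosen after values were seen, gave 0.42. Actin genes and regulators also moved together, with 0.53 for Actb and Pfn1 and for Cfl1 and Pfn1.

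Each of the 10 lowest pairs joined Cdk6, Ptma, Cdca7, Ran or Anp32b with Txnip, Ifitm1, Procr, Mettl7a1, Rps27, H2-K1 or Shisa5. Cdk6, the kinase that opens the G1 phase and is low in long-term stem cells, had its lowest correlation with Ifitm1, at -0.51. By mouse, r was -0.47, -0.46, -0.59 and -0.51 in controls and -0.50, -0.52, -0.61 and -0.38 in depleted mice, negative in all 8. Txnip was negative with Ptma, a chromatin-associated growth gene, at -0.46, with Cdca7, a Myc target, at -0.45 and with Ran, the nuclear transport GTPase, at -0.43. Procr was lowest with Cdca7, at -0.43, followed by Cdk6 at -0.41 and Mcm6 at -0.40, and highest with Ifitm1 at 0.50. The genes with most partners past the limit were Ppia with 116 positive and 26 negative, Ran with 98 and 18, and Ptma with 88 and 24. Txnip had mostly negative ones, with 23 positive and 73 negative, and Ifitm1 had 39 and 40. When total count and number of genes were regressed out within each mouse, Cdk6 with Ifitm1 stood at -0.47 and Ptma with Txnip at -0.37. With this setting 116 negative pairs stood past the limit, against 693 without it.

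**Figure D4:**
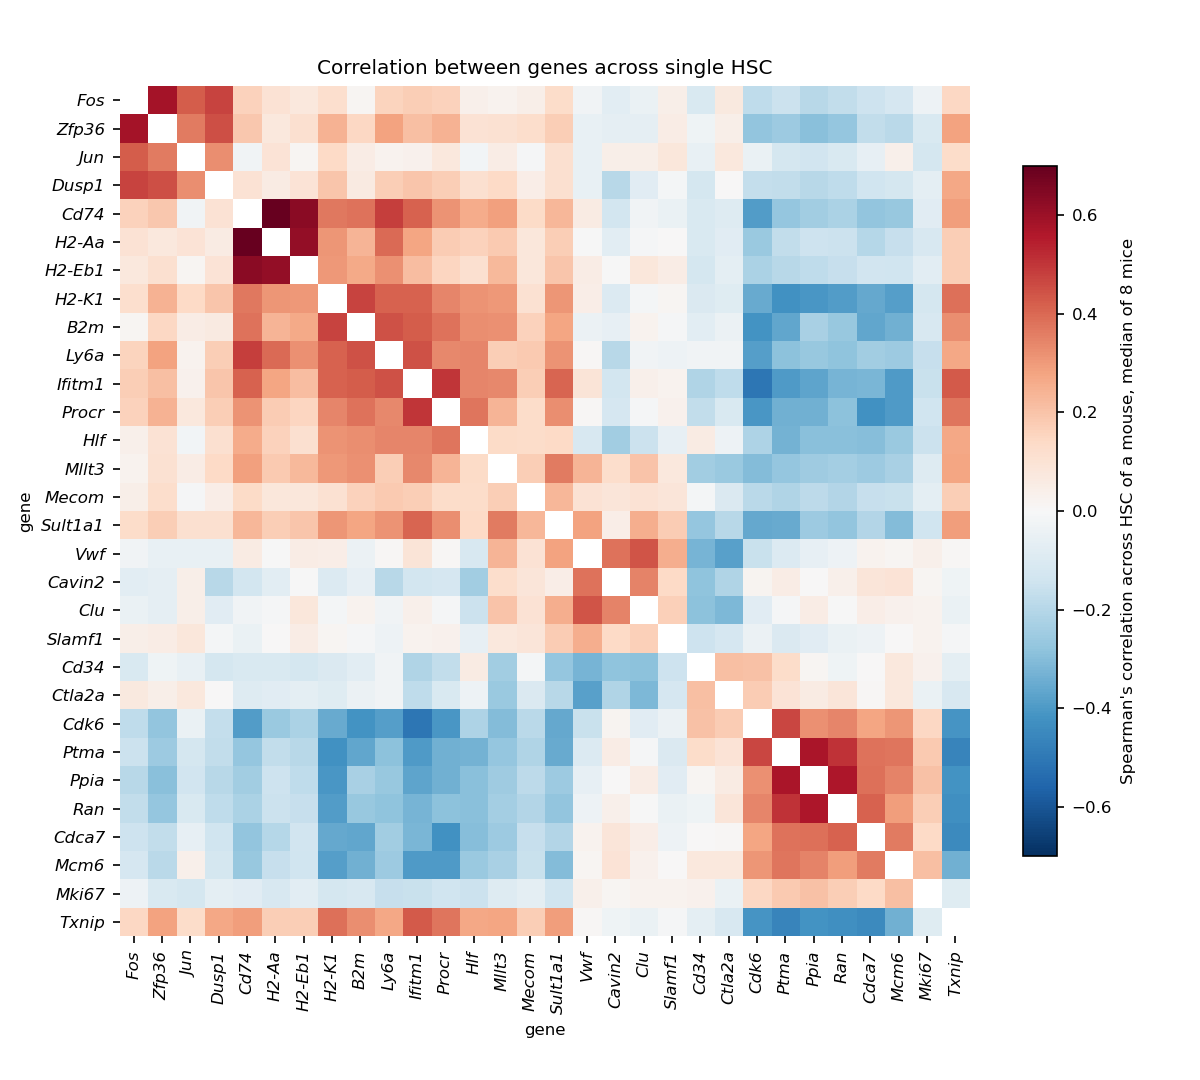
Median over 8 mice of Spearman's correlation across the HSC of a mouse (colour) for 30 genes (both axes), chosen after values were seen. Red blocks hold the immediate early genes, the class II genes, the class I and stem cell genes, Vwf with Cavin2 and Clu, and Cdk6 to Mcm6; the blue block pairs Cdk6 to Mcm6 with Ifitm1, Procr and Txnip.

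The 5 marker genes did not form 1 block. Their closest partners were sought among the genes with a count in at least 50% of HSC. Hlf was closest to Procr (0.38), Ly6a (0.34) and Ifitm1 (0.34), and Mllt3 to Sult1a1 (0.36). Mecom had no partner above 0.23, with Sult1a1, and Slamf1 none above 0.26, with Apoe, followed by Vwf at 0.25. Procr with Slamf1 gave 0.03 and Procr with Vwf 0.01, pairs chosen after values were seen. Over the 105 pairs of 15 HSC markers the median r was 0.04, and over the 136 pairs of 17 stem cell transcription factors 0.01. Among genes with a count in at least 50% of HSC, Vwf was closest to Cavin2 (0.38), a gene of membrane caveolae. In the same search Vwf was lowest with Ctla2a (-0.38), a protease inhibitor gene, and Cd34 (-0.33). Within the low-output list, which was not held to that 50%, Vwf with Clu was the highest pair at 0.44, above Vwf with Cavin2. The list named Cavin2 by its older symbol, Sdpr, and 18 of its 19 symbols were in the matrix. Cavin2 therefore did not enter the list's counts, medians or score.

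Cell cycle genes were positively correlated throughout their lists. All 190 pairs of the 20 S-phase genes had a median r above 0, with a median of 0.31, and 102 reached 0.3. The S-phase score of a cell, the mean log2(CPM + 1) of these genes, correlated with its number of genes at 0.44, and the median pair value was 0.24 with depth regressed out. All 190 G2/M pairs were above 0 too, with a median of 0.19 and the highest for Bub1 with Kif11, at 0.33. Among genes with a count in at least 50% of HSC, Mki67 was closest to Ccna2, the cyclin of S and G2, at 0.27. Scores of S phase and G2/M correlated at 0.43, and at 0.28 with depth regressed out. Scores of HSC markers correlated with S phase at -0.30 and with the low-output list at 0.50. The score of multipotent progenitor markers correlated with the low-output list at -0.41, over a range of -0.49 to -0.30 in the 8 mice.

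The G2/M genes also share letters at their starts, which is why 2 of them are printed, in the same form as above. Capitals mark CCAAT (or ATTGG) and TTTGAA, the cell cycle genes homology region, on either strand.
Cdk1, chr10:69352883-69353112, minus strand: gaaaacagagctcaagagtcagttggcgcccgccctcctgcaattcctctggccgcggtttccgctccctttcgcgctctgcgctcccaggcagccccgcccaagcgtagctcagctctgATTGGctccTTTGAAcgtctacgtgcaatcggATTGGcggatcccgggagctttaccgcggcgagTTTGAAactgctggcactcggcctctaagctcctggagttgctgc
Cdc20, chr4:118437314-118437543, minus strand: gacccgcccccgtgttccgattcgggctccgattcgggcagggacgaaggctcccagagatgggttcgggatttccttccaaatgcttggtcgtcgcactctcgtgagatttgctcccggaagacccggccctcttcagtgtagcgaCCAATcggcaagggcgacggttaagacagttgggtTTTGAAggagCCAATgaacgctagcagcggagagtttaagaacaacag
Cdk1, the mitotic kinase, held CCAAT 80 and 48 bases and TTTGAA 71 and 15 bases before its start. Cdc20, an activator of the anaphase-promoting complex, held CCAAT 53 and 8 bases and TTTGAA 18 bases before. In the whole windows, CCAAT stood in 16 of 18 G2/M genes, against 37.9% of all windows, and TTTGAA in 13 of 18, against 18.1%. Of 17 S-phase genes with a window, 11 held CCAAT and 1 held TTTGAA. These shares are counts of letters, and no binding was measured.

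Principal components of the 1000 genes of highest excess SD, predicted genes and pseudogenes left out and the mean of each mouse removed, summarised these axes. The first held 3.22% of the variance and ran from Mcm2, Cdca7, Itga2b and Mcm6 at 1 end to Procr, Cd74, Ly6a and Sult1a1 at the other. It correlated with the number of genes of a cell at a median of 0.59 over the 8 mice. The second held 1.87% and ran from Sult1a1, Clu, Vwf and Tgm2 to Ctla2a, Serpinb1a and Cdk6, with a median correlation of 0.38 with the number of genes, over a range of 0.00 to 0.58. The third held 1.12% and ran from Cd34, Vim, Anxa1 and Csf3r to Vwf, Cavin2 and Clu, with a correlation of 0.14 with the number of genes. The part of depth in the 3 components was not tested. Loadings from control cells alone correlated across genes with those from all cells at 0.98, 0.84 and 0.86, and those from depleted cells alone at 0.97, 0.93 and 0.92. The same cells enter both sides, so these are descriptions.

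Between treatments, no gene differed in between-cell variation past the threshold. The comparison used limma on 1 excess SD per gene and mouse, 4 depleted against 4 control mice, with Benjamini-Hochberg adjustment over 10759 genes. It called 0 genes (0%) at an adjusted p under 0.05, and 815 genes (7.58%) had an unadjusted p under 0.05, 333 higher and 482 (4.48%) lower in depleted mice. Other settings called 0 to 37 genes. The p-values measure the spread between mice. The lowest p among higher values was that of Pdia3, a disulfide isomerase gene of the endoplasmic reticulum. Its excess SD was -0.17, 0.16, 0.28 and 0.05 in control mice and 0.53, 0.72, 0.57 and 0.49 in depleted mice. The groups did not overlap, and the difference was 0.50 ± 0.08 (SE) with a limma adjusted p of 0.0693, so it missed the threshold. Next came Msn, which links actin to the membrane, at 0.39, Prkacb, a kinase gene, at 0.29, Cdc42, a GTPase gene, at 0.41 and Ybx1 at 0.38. Among lower values Fcna, a ficolin gene, had a difference of -0.81 ± 0.12 (SE) with a limma adjusted p of 0.0562. Its mean level was 0.318, 47.7, 23.2 and 13.8 CPM in control mice and 0, 0.00940, 0 and 0.0561 CPM in depleted mice, so level moved with spread, and its part was not tested. The others with a low p were ribosomal protein genes and copies, such as Rps21 at -0.68 and Rpl31 at -0.54, whose levels also differed, at 214 against 139 CPM and 556 against 356 CPM. Of 20 S-phase genes, 8 had an unadjusted p under 0.05, all lower in depleted mice (all genes 4.48%), with a median difference of -0.21 against 0.00 over all genes. The share of cells with at least 10 of these 20 genes moved with it: it was 24.1%, 10.3%, 44.9% and 46.7% in control mice and 21.1%, 20.7%, 11.6% and 24.2% in depleted mice. Control mice 3 and 4 stood apart, control mouse 1 lay within the range of the depleted mice and control mouse 2 below it. The summed level of the 20 genes was 1476 to 3886 CPM in control and 1692 to 2231 CPM in depleted mice, and 6 of them had a lower detection share in depleted mice at an unadjusted p under 0.05 (all genes 17.4%). The part of level and detection in the S-phase count was not tested. None of the 7 class II genes and 4 of the 18 immediate early genes, 2 in each direction, had an unadjusted p under 0.05.

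Shares of thinned cells with a count differed for 2 of 10759 genes (0.0186%) in limma on the transformed share, both lower in depleted mice. Cdc42 was detected in 100% of cells in all 4 control mice and in 97.8%, 98.9%, 97.7% and 98.9% in depleted mice (limma adjusted p = 0.0232). The depleted mice held 90, 92, 86 and 91 thinned cells, so this difference rests on a few cells without a count. The control shares stood at the ceiling, with no spread between mice. Rpsa-ps10, a pseudogene copy of the ribosomal gene Rpsa that may share its reads, was detected in 84.7% of control and 56.9% of depleted cells, averaged over mice (limma adjusted p = 0.0396). Neither gene's groups overlapped. Without control mouse 2 or control mouse 4 the count was 0, without control mouse 3 or depleted mouse 4 it was 1, without control mouse 1 it was 4, and without depleted mouse 1 it was 10. At an unadjusted p under 0.05 there were 1930 genes (17.9%), of which 1869 (17.4% of all tested) were lower and 61 higher in depleted mice. Thinned cells of depleted mice also held fewer genes, as given above, and the part of that in these shares was not tested. The lowest p among higher shares belonged to Gm37125, Arhgdib, Mir99ahg, H2ac6, a histone gene, and Vldlr, a lipoprotein receptor gene, none of them called. Vldlr was at 8.43%, 5.13%, 8.97% and 13.3% of cells in control mice and at 21.1%, 14.1%, 31.4% and 19.8% in depleted mice (limma adjusted p = 0.17).

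Compared with MkP, HSC varied more in class II genes and less in cell cycle genes and several megakaryocyte genes. This comparison used thinned cells of 5 mice, control mouse 2 and the 4 depleted mice, with 818 MkP. MkP of the other 3 control mice were not analysed here. Limma called 409 of 10640 genes (3.84%), 167 with higher variation in HSC (1.57%) and 242 with lower (2.27%). Ifitm1 had excess SD values of 0.47 to 1.05 in HSC and -0.29 to 0.02 in MkP over the 5 mice, and the ranges did not overlap. The difference was 0.84 ± 0.09 (SE, limma adjusted p = 5.21e-05). H2-Aa differed by 0.76, Sult1a1 by 0.74, Lcp1 by 0.70 and Cd74 by 0.64. Pf4, the platelet chemokine, had the largest difference in the other direction among called genes, -2.49 ± 0.17 (SE, limma adjusted p = 2.75e-06), with -0.72 to -0.10 in HSC and 1.96 to 2.55 in MkP. Rap1b, a GTPase of platelet adhesion, differed by -1.25, Plek, a platelet kinase substrate, by -1.24, Itga2b, which encodes CD41, by -1.20 and Mfsd2b, a lipid transporter gene, by -1.03. With all counts in place of thinned cells 666 genes were called. With the squared coefficient of variation in place of the SD 39 were called, and the difference changed sign for Ifitm1 (-0.74), Lcp1 (-0.80), Itga2b (0.35) and Mcm2, another of the 10 lowest (0.0002).

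**Figure D5:**
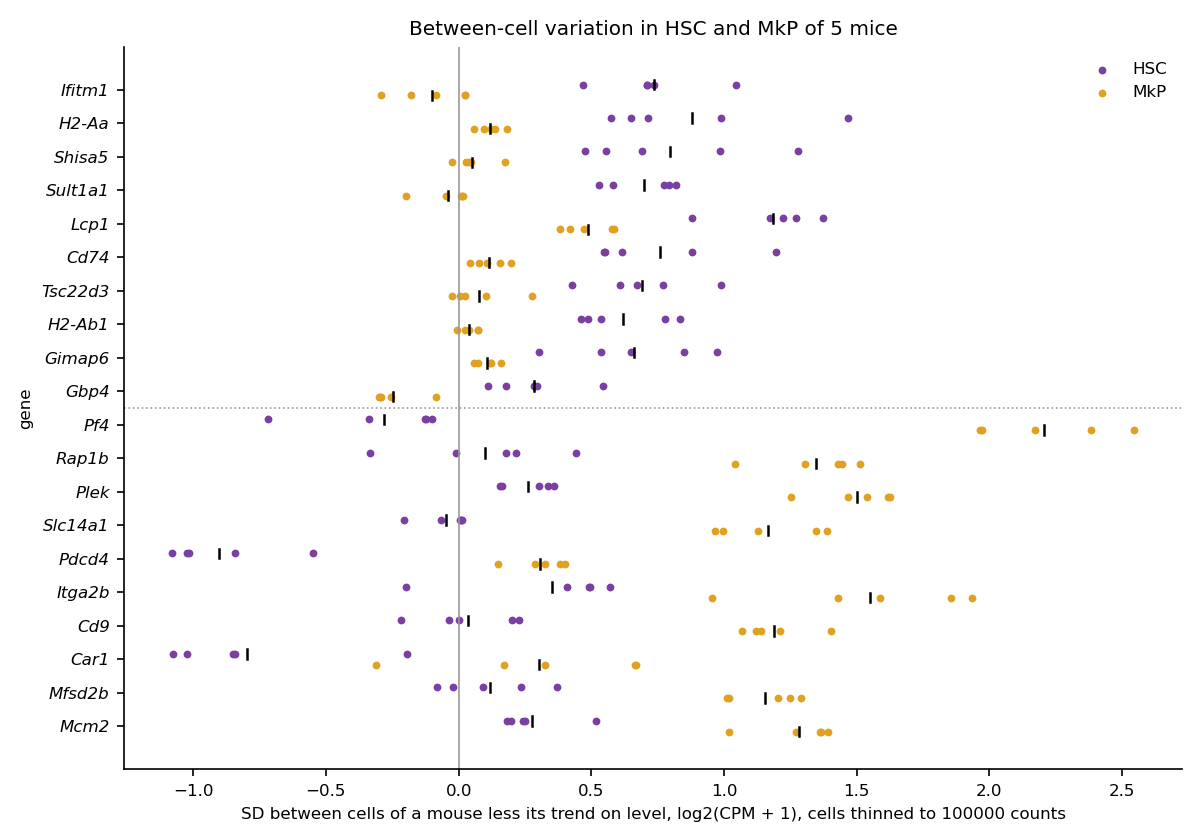
Excess SD between cells in log2(CPM + 1) (horizontal axis) of the 10 called genes of largest difference in each direction (vertical axis), in HSC (purple) and MkP (yellow) of 5 mice (points); black ticks are means. Values of HSC lie right of MkP for the upper 10 genes and left for the lower 10, where Car1 alone overlaps.

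By group, 5 of 7 class II genes were called higher in HSC and 0 lower, against 1.57% and 2.27% of all genes. Of 14 interferon-inducible GTPases, 5 were higher and 1 lower, and of 21 surface receptors 4 were higher and 3 lower. Of 20 S-phase genes 14 were lower in HSC and of 20 G2/M genes 13 were lower, with none higher, while 6 of 13 megakaryocyte genes were lower. The median difference was 0.48 for class II, -0.39 for S phase and -0.26 for G2/M, against 0.01 over all genes. Level moved with these calls: of the 167 higher genes, 79 were also over 2-fold higher in mean level in HSC, and of the 242 lower genes 140 were over 2-fold lower. Genes of a level within 2-fold gave 145 of the calls, 73 higher and 72 lower, while they made up 82.9% of the genes tested. The part of level in the rest was not tested.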

How the data were processed

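Single HSC were profiled by Smart-seq2, per the labels' protocols, 1 library per well. The authors deposited a table of raw counts per gene and well, with no normalization. The submitters' processing notes name Trim Galore 0.5, STAR 2.6.0 and HTSeq 0.6.1, with no role or order, the build and annotation being not given in the sources used here. Symbols on several rows (107 of 55291) were added. Columns were matched to sample titles, and 1247 columns of other wells were not used.

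From the counts, CPM and log2(CPM + 1) were computed with a pseudocount of 1. Each gene got 1 value per mouse: the SD over cells less a lowess trend (span 0.05) on the rank of the mean, for genes with a mean of at least 5 CPM. Cells were thinned to 100000 counts for shares and for HSC against MkP. Groups of mice were compared with limma 3.58.1 (trend, Benjamini-Hochberg, threshold 0.05) in R 4.3.3, with treatment as a term for HSC against MkP. The rest ran in Python 3.11.15 with numpy 2.4.6, scipy 1.17.1, pandas 2.3.3 and statsmodels 0.14.6. The fit was tested on simulated data. Alternatives changed the CPM minimum, pseudocount, measure, depth treatment, gene limit and mice.

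Members and lists were chosen with earlier results of these data known. Named genes are the 30 of highest excess SD above 0 in all 8 mice and the 10 lowest, up to 10 called genes in each direction or else the 5 of lowest p, the 20 highest and 10 lowest pairs, and 5 neighbours at each end of chosen genes. No doublet caller was run. HSC against MkP used 5 mice where 8 were planned, and HSC against CFU was not run, because the columns read did not cover the other mice.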

Additional observations from a re-analysis of the deposited data

Results flagged for a closer look

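In 9 of the 136 groups of 4 mice looked at, over the named variable genes and gene pairs, 1 mouse stood apart: its gap to the nearest of the other 3, divided by the whole range of the 4, was above Dixon's 95% critical value for 4 samples. Chance marks about 1 in 20 such groups. In control HSC, the excess SD of Fos was 0.989 in mouse 1 against 2.06 to 2.19 in the others, and that of Fam107b was 0.481 in mouse 1 against 0.637 to 0.659. The excess SD of Sdha was 0.479 in control mouse 4 against 0.834 to 0.882, that of H2-Ab1 was 0.523 in control mouse 4 against 0.795 to 0.844, and that of Tsc22d1 was 0.878 in control mouse 2 against 0.653 to 0.674. The correlation of Cfl1 with Pfn1 was 0.441 in control mouse 2 against 0.633 to 0.655. In depleted HSC, the excess SD of Cd74 was 0.915 in mouse 2 against 0.589 to 0.622, that of H2-Eb1 was 0.84 in mouse 2 against 0.468 to 0.504, and that of Adgrl4 was 0.864 in mouse 1 against 0.723 to 0.742. Control mouse 1 had the lowest median total count of the 8 mice, 663681, and the part of depth in its values was not tested.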

How the results depend on the processing

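Same-numbered HSC and MkP share the code that opens their titles, which was taken as the mouse. With the mouse as a replicate block the comparison of HSC with MkP called 396 genes, 357 of them among the 409 called without it. The block changed the count of calls by less than 1.5 times. The same comparison called 666 genes with all counts of a cell and 39 with the squared coefficient of variation, under which Ifitm1 (-0.74), Lcp1 (-0.80), Itga2b (0.35) and Mcm2 (0.0002) changed sign. Leaving out 1 mouse gave 284 to 327 calls.

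Between treatments, variation gave 29 calls with a pseudocount of 10, 12 with total count and number of genes regressed out, 37 with the trend on the mean value (chosen after seeing the data), 1 with a mean of at least 20 CPM, 1 with thinned cells, and 0 to 1 without 1 mouse. Eef1a1-ps1 changed sign to 0.0487 when thinned. Detection gave 1 call with all counts, 4 with a mean of at least 20 CPM, 0 when thinned to 20000 counts, and 0 to 10 without 1 mouse. Pairs past a median r of 0.3 numbered 1344 (1228 positive, 116 negative) with total count and number of genes regressed out. Without 1 mouse they numbered 2684 to 5384. The causes were not tested. Of the values for named variable genes under these settings, 377 moved by less than the spread between mice and 13 by more, and for named pairs 858 and 33. HSC against CFU was not run. Depth limits the shares of cells, since 6 HSC held under 100000 counts.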

Other observations

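Erythroid markers summed to 2060 to 2969 CPM in control HSC and 2087 to 2415 CPM in depleted HSC, most of it from the carbonic anhydrase gene Car2 at a mean of 2074 CPM. Of 8 tested, 2 had an excess SD above 0 and 3 below 0 in all 8 mice (all genes 19.7% and 23.8%). Their median was -0.23. Car2 was highest, at 0.42. Klf1, the erythroid master factor, had -0.61 at 5.80 CPM, and Car1, another carbonic anhydrase gene, -1.60 at 23.2 CPM. Gfi1b, a repressor shared by erythroid and megakaryocyte cells, had 0.33 at a mean of 141 CPM and a count in 50.8% of thinned HSC. Endothelial genes were present too, with Pecam1 at 67.2 CPM in 35.2% and Emcn at 56.0 CPM in 31.4% of thinned cells, while Cdh5 lay under 1 CPM. Cholesterol synthesis genes had a median excess SD of 0.12, with 7 of 16 above 0 in all 8 mice (19.7% of all genes) and 3 below. Sqle was at 0.26 and Msmo1 at 0.24, and Idi1 with Msmo1 was the list's highest pair, at a median r of 0.28 over the 8 mice. Among heat shock genes the chaperonin pair Hspd1 and Hspe1 differed in excess SD, with 0.16 and -1.06. The part of level in that difference was not tested.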
